A study of Mus musculus with 37 samples.

Results

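The 37 genes described here lie beside the stretch of mouse chromosome 7 that is syntenic to human 16p11.2, outside the stretch itself. They were chosen by name as unrearranged neighbours on both sides, and each was represented by the probe set with the highest mean among those carrying its symbol alone. All 37 were measured, out of 19938 genes on the array. Of these, 18 lie beyond the end of the interval marked by Slx1b, from Sult1a1 outwards to Il4ra, and 19 lie beyond the end marked by Septin1, from Zfp553 outwards to Itgam. The mice were F1 hybrids of C57BL/6N and 129Sv, all male, and carried an engineered chromosome over a wild type one. The 2 df/+ mice had a deletion of the interval and so 1 copy of it, the 3 +/+ mice had 2 copies, and the 3 dp/+ mice had a duplication and 3 copies. The flanking genes themselves were left at 2 copies in every group. Total RNA came from 4 regions (cerebellum, cortex, brain stem and olfactory bulb), except that no cortex of dp/+ mouse 3 was analysed here. The labels give no age. Since each genotype comes from 1 engineered allele, the values describe these alleles.

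A deletion or duplication can alter genes that it leaves intact, because the breakpoints bring new sequence next to them and change their distance from enhancers and domain boundaries. Such changes outside a rearrangement are called position effects. They are described by side, by distance, by brain region and by copy number, since a neighbour may respond to the lost or gained dose of a gene or to the new junction, whichever the copy number. The flanks of this interval hold genes of varied function: cytokine receptors and leukocyte adaptors, lysosomal and mitochondrial proteins, zinc finger proteins, and several enzymes that modify histones.

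The 37 arrays gave 31 region samples of 8 mice, and the few samples hybridised 2 times were averaged. For the flanking genes, repeat arrays of a sample had a median SD of 0.091 (log2), and mice of the same group and region one of 0.14. In +/+ mice the marker genes peaked in the region they mark: 5 of 5 measured markers of the bulb, 4 of 4 of the cortex, 5 of 5 of the cerebellum and 4 of 4 of the brain stem. Nothing in the labels says how the tissue was handled, and the mouse was taken as the unit of replication. In tissue RNA, fewer cells of a type and less RNA per cell cannot be told apart.

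The gene beside each end of the interval, and the 3 members that passed a test in some region, were picked for closer description. Sult1a1 encodes a phenol sulfotransferase and is the first coding gene beyond Slx1b. Zfp553, a zinc finger gene, is the first coding gene beyond Septin1. Vkorc1, the subunit of vitamin K epoxide reductase that warfarin inhibits, and Kat8, the histone acetyltransferase also known as MOF, lie 33 and 35 coding genes beyond Septin1. The 250 bases before their starts are shown because these are the promoters that stayed intact on the rearranged chromosome. They were taken from RefSeq on GRCm38.p6, 5′ to 3′ along the gene, with capitals at each CCAAT or GGGCGG box found on either strand (ATTGG and CCGCCC on the other strand).
Sult1a1, chr7:126676419-126676668, minus strand: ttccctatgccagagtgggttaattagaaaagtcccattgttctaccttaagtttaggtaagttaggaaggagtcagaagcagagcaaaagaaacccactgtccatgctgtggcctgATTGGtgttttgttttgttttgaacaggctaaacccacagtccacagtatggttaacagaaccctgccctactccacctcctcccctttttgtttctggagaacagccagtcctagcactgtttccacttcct
Zfp553, chr7:127232811-127233060, plus strand: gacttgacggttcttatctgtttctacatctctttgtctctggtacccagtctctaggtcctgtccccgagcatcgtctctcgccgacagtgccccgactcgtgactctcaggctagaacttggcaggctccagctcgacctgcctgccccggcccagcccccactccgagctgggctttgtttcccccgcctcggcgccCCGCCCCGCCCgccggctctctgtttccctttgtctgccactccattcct
Vkorc1, chr7:127895618-127895867, minus strand: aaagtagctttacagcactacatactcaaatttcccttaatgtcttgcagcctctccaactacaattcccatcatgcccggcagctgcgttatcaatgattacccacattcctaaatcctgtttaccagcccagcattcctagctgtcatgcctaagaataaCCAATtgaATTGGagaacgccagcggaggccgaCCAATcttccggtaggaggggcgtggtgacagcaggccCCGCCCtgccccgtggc
Kat8, chr7:127912267-127912516, plus strand: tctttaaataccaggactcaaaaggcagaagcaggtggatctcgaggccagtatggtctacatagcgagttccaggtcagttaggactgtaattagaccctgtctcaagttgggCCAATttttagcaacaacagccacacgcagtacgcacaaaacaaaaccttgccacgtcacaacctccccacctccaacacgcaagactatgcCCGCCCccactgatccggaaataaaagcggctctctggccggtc
For Kat8 the first of 2 listed starts is shown. The Sult1a1 window held 0 CpG and 1 kind of box, CCAAT, whereas the Zfp553 window held 17 CpG and GGGCGG boxes alone. Vkorc1 and Kat8 held both kinds of box, with 9 and 10 CpG.

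The expression of the interval itself stepped down with the deletion and up with the duplication. Slx1b, a structure-specific endonuclease subunit at one end, stood at 54.0% of the +/+ level in df/+ mice and at 115.6% in dp/+ mice across the brain, and Bola2, an iron-sulfur cluster protein next to it, at 64.9% and 111.0%. Their slopes on log2 copies, where 1 is proportional to copy number, were 0.70 ± 0.074 (SE; limma adjusted p = 0.000567) and 0.49 ± 0.057 (limma adjusted p = 0.00151). At the other end, Mylpf, a myosin light chain of fast muscle, and Septin1, a filament-forming GTPase, had slopes of 0.10 ± 0.040 and 0.13 ± 0.052, with limma adjusted p = 0.697 and 0.707. Just outside, Sult1a1 had a slope of 0.067 ± 0.053 and Zfp553 one of -0.095 ± 0.062, with limma adjusted p = 0.76 and 0.735. Across the 30 measured interval genes the median was 65.9% in df/+ and 120.7% in dp/+ mice. Across the flanking genes it was 99.7% and 100.4%.

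**Figure D1:**
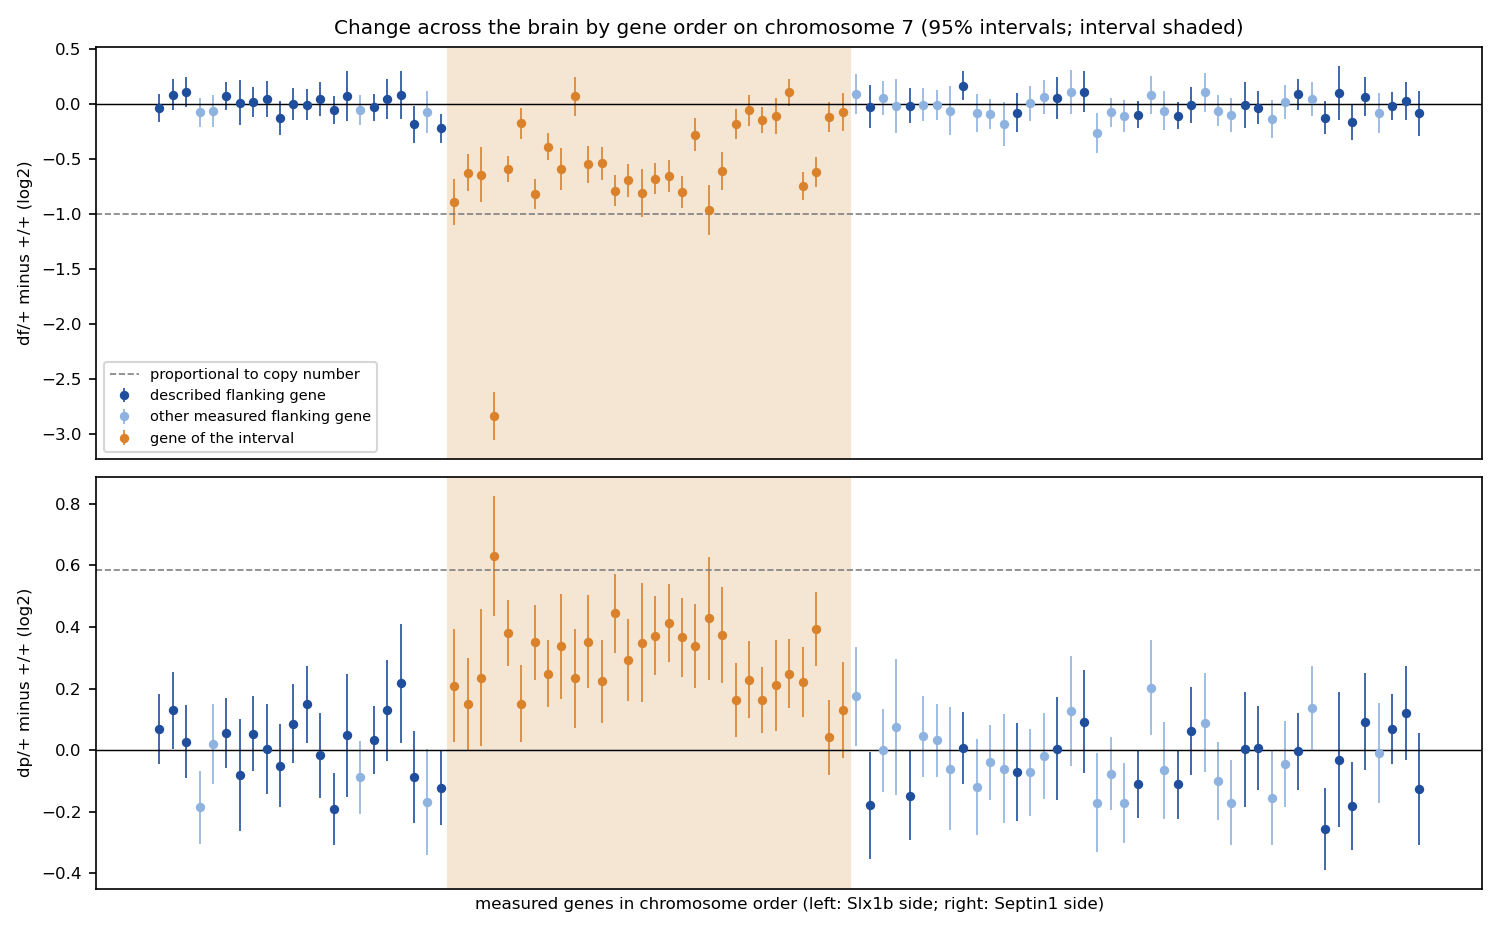
Change from +/+ across the brain (log2, vertical axes, of different scale in the 2 panels) for df/+ mice (top) and dp/+ mice (bottom), for every measured gene in chromosome order (horizontal axis); bars are 95% intervals of the fit over 8 mice, the shaded stretch is the interval, and the dashed line marks a change in proportion to copy number. The dark points of the flanking genes lie near 0 on both sides, between -0.22 and 0.17 in df/+ and between -0.26 and 0.22 in dp/+ mice, and none of their intervals reaches the dashed line.

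Across the brain, none of the 37 flanking genes passed a test of change with copy number. In limma fits over 8 mice, with 1 value per mouse, 0 members passed an adjusted p of 0.05 for the slope on log2 copies, where 0.110% of all genes did. The counts were also 0 for df/+ against +/+ (0.115% of all genes), for dp/+ against +/+ (1.86%) and for both rearrangements together against +/+ (0.0301%). At an unadjusted p under 0.05 the same fits gave 1 member for the slope (6.87% of all genes), 4 for df/+ or 10.8% (6.75% of all genes), 9 for dp/+ or 24.3% (23.7%) and 7 for both or 18.9% (15.7%). The share for the duplication was close to that of all genes. Of the interval genes, 21 passed for the slope, 19 in df/+ and 15 in dp/+ mice in the same fits. The df/+ and dp/+ comparisons share their 3 +/+ mice, so a +/+ mouse that stands apart moves both.

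The 95% intervals bound the size of any change in the flanking genes. The 95% interval left out a change in proportion to copy number for 37 of 37 members in df/+ mice (50% of +/+) and for 37 of 37 in dp/+ mice (150% of +/+). It also left out that size for 26 and 28 of the 30 interval genes, whose copy number did change, so it does not set the flanking genes apart from them. It lay within 1.5-fold of the +/+ level for 37 of 37 in each genotype. Point estimates ran from 85.8% to 112.4% of +/+ in df/+ and from 83.8% to 116.2% in dp/+ mice.

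The smallest p across the brain belonged to different members in each comparison. Sult1a1 led in df/+ mice: relative to the +/+ mean of each region, it averaged -0.25 and -0.19 (log2) in the df/+ mice, 0.042, 0.029 and -0.071 in the +/+ mice and -0.11, -0.18 and -0.080 in the dp/+ mice. Every rearranged mouse was thus below every +/+ mouse, at 85.8% of +/+ with the deletion and 91.8% with the duplication. The difference was -0.22 ± 0.061 (SE) in df/+ mice and did not pass the correction over all genes (limma adjusted p = 0.487). Zfp764, a zinc finger gene, was the next, at 112.4% in df/+ mice (limma adjusted p = 0.623), where both df/+ mice (0.16 and 0.18) were above all others. It also had the smallest p for the slope, -0.10 ± 0.041 (limma adjusted p = 0.697), followed by Atp2a1 at 0.094 ± 0.046 (0.717) and Il4ra at 0.066 ± 0.038 (0.721).

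In dp/+ mice the leading member was Vkorc1. Its averages were -0.28, -0.18 and -0.30 in dp/+ mice, -0.10 and -0.15 in df/+ mice and 0.051, 0.062 and -0.11 in +/+ mice. The dp/+ mice were below every +/+ mouse, at 83.8% of +/+, with a difference of -0.26 ± 0.061 (SE) that fell just short of the threshold (limma adjusted p = 0.0558). The call was gained when the first array of each sample was used alone (limma adjusted p = 0.0473), without the cortex (0.0268) and with all region samples in 1 fit (0.026), all at 0.05 as the threshold. Tufm, the mitochondrial elongation factor Tu, stood at 87.5% in dp/+ mice (limma adjusted p = 0.0806) and Kat8 at 88.2% (0.141). The second Tufm probe set, the only second one among the members, gave 88.8%. Leaving out +/+ mouse 1 put Zfp553 past the threshold in dp/+ mice, so that the count went from 0 to 1.

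Some members separated the genotypes mouse by mouse, as did a share of all genes, and the difference was not tested. Across the brain, every df/+ mouse was below every +/+ mouse for 6 members (13.8% of all genes) and above for 2 (6.49%). The dp/+ mice were below for 7 members (10.9% of all genes) and above for 2 (17.0%). All 5 rearranged mice were below all +/+ mice for 4 members, Bcl7c, Kat8, Rnf40 and Sult1a1 (4.49% of all genes), and above for 0 (3.21%).

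The size of the estimates had no order with distance from the interval that held on both sides and in both genotypes. It fell steadily only in dp/+ mice on the Slx1b side. On the Slx1b side, the median size of the dp/+ change, sign aside, was 0.11 for the 6 nearest members, 0.068 for the next 6 and 0.063 for the 6 farthest. On the Septin1 side it was 0.083, 0.035 and 0.12, with the 7 farthest, from Vkorc1 to Itgam, as the widest group. In df/+ mice the medians were 0.076, 0.047 and 0.056 on the first side and 0.068, 0.060 and 0.084 on the other. Over all genes the median size was 0.052 in df/+ and 0.081 in dp/+ mice, and over the members 0.066 and 0.081. These are descriptions without a test.

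By role, the largest group was that of 9 genes of mitochondria, RNA and metabolism. These are Tufm, Gtf3c1, Atxn2l, Sult1a1, Nupr1, Sephs2, Vkorc1, Bckdk and Hsd3b7. Across the brain 6 of the 9 were lower in df/+ and 6 in dp/+ mice, with medians of -0.032 and -0.087, and 0 passed the adjusted threshold. Over all genes the medians were -0.013 and -0.007. Over the brighter part of all genes, where all 9 and the 6 chromatin genes lie, they were -0.031 and -0.059. Lower members of the group besides Vkorc1, Tufm and Sult1a1 included Nupr1, a stress-induced nuclear protein, at 88.1% in df/+ mice (limma adjusted p = 0.705). Among the 6 chromatin genes, 4 were lower in df/+ and 3 in dp/+ mice, with medians of -0.053 in both, and again 0 passed. Besides Kat8 these are Rnf40, a ubiquitin ligase for histone H2B, Bcl7c, a subunit of BAF remodelling complexes, Fbrs, and 2 large enzymes, the remodelling ATPase Srcap and the histone methyltransferase Setd1a. Of the 4 zinc finger genes (Zfp764, Zfp553, Zfp689 and Zfp646), 2 were lower in df/+ and 3 in dp/+ mice.

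The remaining roles centred on 0 or above it. The 8 immune genes had medians of -0.001 in df/+ and 0.070 in dp/+ mice; they are the receptors Il4ra and Il21r, the cytokine subunit Il27, the T cell adaptor Lat, Nfatc2ip, the lipoprotein receptor Apobr, the inflammasome adaptor Pycard and the integrin Itgam. The 7 genes of lysosome, transport and signalling had medians of 0.013 and 0.032. They are the Batten disease gene Cln3, the lysosomal transporter Spns1, the exportin Xpo6, the adaptor Sh2b1, Rabep2, Sbk1 and Ctf1. The 3 genes of muscle and proteases had medians of 0.026 and 0.12: the calcium pump Atp2a1, the membrane repair protein Trim72 and the protease Prss8. None of these 18 genes passed across the brain. The 3 genes of muscle and proteases, and all immune genes but Il4ra, lie in the dimmer part of all genes. That part had medians of 0.001 in df/+ and 0.072 in dp/+ mice.

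In dp/+ mice dim genes had higher estimates than bright ones. The 14 members in the dimmer part of all genes had a median dp/+ change of 0.078 across the brain and the 23 brighter members one of -0.004, and the dim and bright parts of all genes showed 0.072 and -0.059. In the cortex the 2 medians were 0.23 and -0.034 for the members and 0.12 and -0.060 for all genes. In the cerebellum they were 0.15 and -0.041 against 0.11 and -0.12. With all genes ranked by brightness into deciles, decile 8 holds Kat8, Vkorc1, Tufm and Rnf40. Its median in dp/+ cerebellum was -0.143. The part of the shift with brightness in the results of single members, dim or bright, was not tested.

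Within regions, 8 contrasts with +/+ were made, 4 for each rearrangement, and members passed in 2 of them. In dp/+ mice Vkorc1 fell in the olfactory bulb, and Zfp553 and Kat8 fell in the cerebellum. These were 1 of 37 members in the bulb, where 2.27% of all genes passed (1.06% as lower), and 2 of 37 in the cerebellum, where 5.54% passed (3.26% as lower). Taken in either direction, both counts were near the share of all genes. In the other 6 contrasts 0 members passed, in dp/+ cortex (0% of all genes) and brain stem (0.0150%) and in df/+ bulb (0.291%), cortex (0.100%), cerebellum (0.0702%) and brain stem (0.211%). The fit was limma over 31 samples, where the mouse entered as a random effect.

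**Figure D2:**
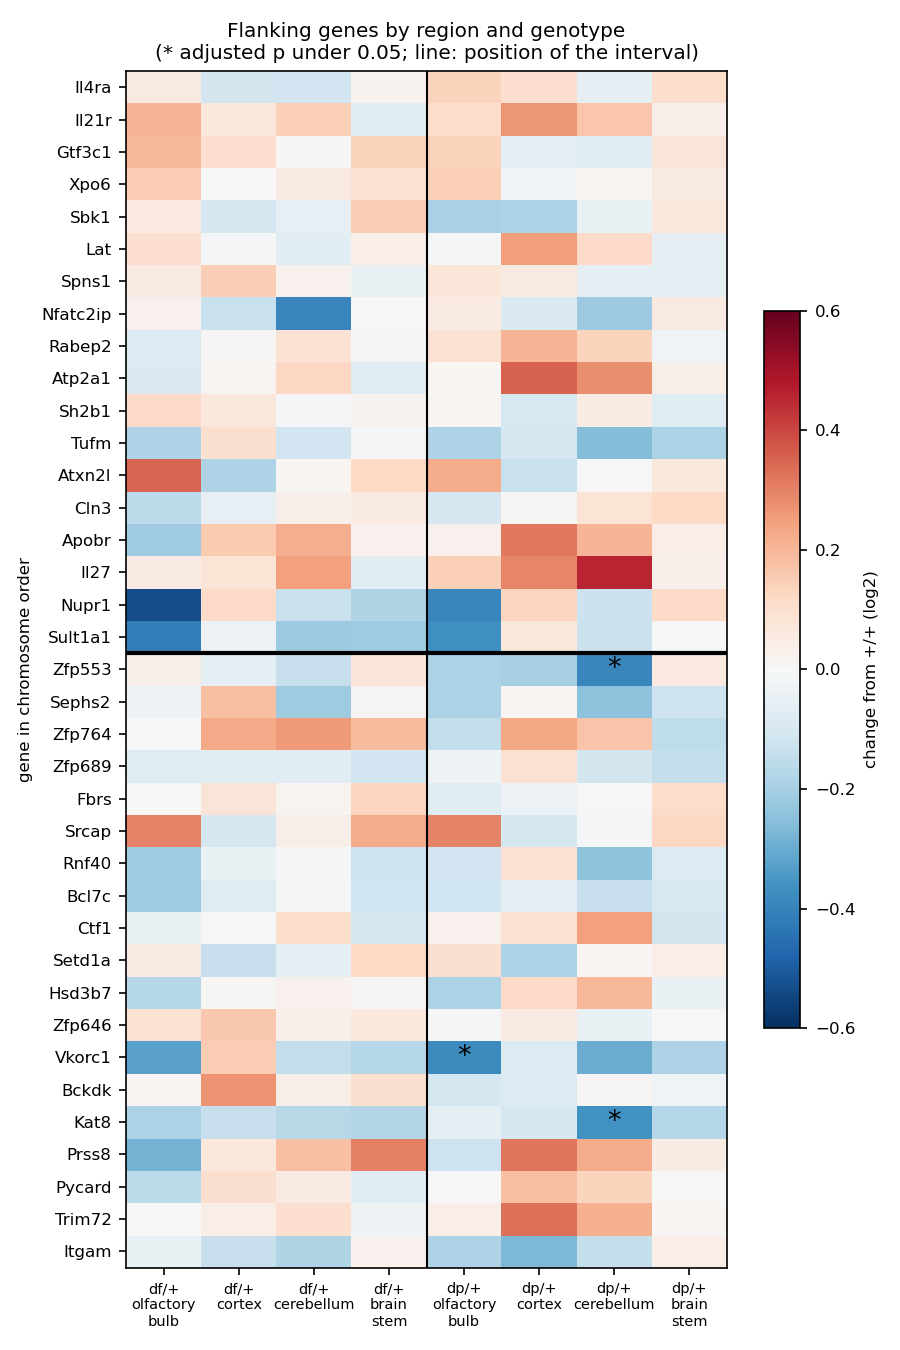
Change from +/+ (log2, colour scale) of each flanking gene (rows, in chromosome order, with a line where the interval lies) in each region of df/+ mice (left 4 columns) and dp/+ mice (right 4 columns); a star marks limma adjusted p under 0.05. Stars stand at Vkorc1 in dp/+ bulb and at Zfp553 and Kat8 in dp/+ cerebellum, and no block of neighbouring rows takes 1 colour across all columns.

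In the olfactory bulb, Vkorc1 was 9.05, 9.08 and 9.01 in dp/+ mice, 9.11 and 9.10 in df/+ mice and 9.63, 9.40 and 9.26 in +/+ mice (log2 values). Both rearranged groups lay below all +/+ mice. The dp/+ difference was -0.38 ± 0.095 (SE), or 76.6% of +/+, with limma adjusted p = 0.0318. The df/+ difference was -0.33 ± 0.11, or 79.7%, with limma adjusted p = 0.215. The dp/+ call was lost without +/+ mouse 1 (limma adjusted p = 0.192), +/+ mouse 2 (0.0765), dp/+ mouse 2 (0.0807) or dp/+ mouse 3 (0.094), and without either df/+ mouse (0.0573), which enters only through the shared spread; it was kept without +/+ mouse 3 (0.0149) or dp/+ mouse 1 (0.0414). It was also lost with array weights (0.0516) and with each region fitted alone (0.165).

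The 2 nearest members on the Slx1b side were also low in the bulb of both genotypes without passing. Sult1a1 was 8.0 and 8.06 in df/+ mice, 8.67, 8.36 and 8.29 in +/+ mice and 8.16, 7.93 and 8.13 in dp/+ mice, so the +/+ mice stood above all others. Its differences were -0.41 ± 0.14 (limma adjusted p = 0.215) and -0.37 ± 0.12 (0.0995). Nupr1 was 8.06 and 8.22 in df/+ mice, 8.88, 8.77 and 8.37 in +/+ mice and 8.39, 8.09 and 8.37 in dp/+ mice. The df/+ mice were below every +/+ mouse, at 69.1% (limma adjusted p = 0.15), a difference that passed without +/+ mouse 3 (0.0364); the dp/+ mice overlapped with +/+ mouse 3. With arrays centred on their medians, Sult1a1 joined Vkorc1 past the threshold in dp/+ mice. In all, 8 members had an unadjusted p under 0.05 in df/+ bulb, or 21.6% against 10.7% of all genes, and 5 in dp/+ bulb, or 13.5% against 17.9%.

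Transcripts of the nasal mucosa and of olfactory sensory neurons, whose axons end in the bulb, were also lower in the same samples. The 8 such genes, a list chosen after values were seen, averaged 8.03 to 8.07 in the df/+ bulbs, 8.81 to 9.21 in the +/+ bulbs and 8.63 to 8.73 in the dp/+ bulbs (log2). In df/+ mice 7 of the 8 were lower, 4 of them past the threshold, with a median of -0.83. In dp/+ mice 8 of 8 were lower and 1 passed, with a median of -0.38. Their part in the bulb values of Sult1a1, Nupr1 and Vkorc1 was not tested. Vkorc1 was lower in dp/+ mice in the other regions as well, with 81.3% of +/+ for cerebellum, 87.9% for brain stem and 94.6% for cortex and limma adjusted p = 0.0568, 1 and 0.762.

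In the cerebellum, Zfp553 was 7.84, 7.84 and 7.99 in dp/+ mice, 8.21 and 8.07 in df/+ mice and 8.17, 8.36 and 8.31 in +/+ mice (log2 values). All dp/+ mice were below all others. The dp/+ difference was -0.39 ± 0.11 (SE), or 76.3% of +/+, with limma adjusted p = 0.0394, and the df/+ level was 90.8% (limma adjusted p = 0.768). In the other regions of dp/+ mice Zfp553 stood at 87.8% (bulb), 87.2% (cortex) and 104.2% (brain stem), and passed in none of them. Kat8 was 9.35, 9.37 and 9.28 in dp/+ mice, 9.41 and 9.65 in df/+ mice and 9.75, 9.70 and 9.64 in +/+ mice. Again the dp/+ mice were lowest, at 77.6%, with a difference of -0.37 ± 0.11 (SE; limma adjusted p = 0.0432). Kat8 was below the +/+ mean in 8 of the 8 contrasts, from -0.058 in dp/+ bulb downwards, and so was Bcl7c; these contrasts share +/+ mice.

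Neither cerebellar call was firm. Kat8 lost it whichever of the 8 mice was left out, with limma adjusted p from 0.0512 to 0.18. Zfp553 lost it without either df/+ mouse (0.0513), +/+ mouse 2 (0.139), +/+ mouse 3 (0.108), dp/+ mouse 1 (0.193) or dp/+ mouse 2 (0.0954), and kept it without +/+ mouse 1 (0.0303) or dp/+ mouse 3 (0.0302). Both were lost with the first arrays alone, with quantile normalization within regions and with cyclic loess, where the difference of Kat8 was -0.26 in place of -0.37 and that of Zfp553 was -0.33 and -0.37 in place of -0.39. Rnf40, Tufm and Vkorc1 came next in dp/+ cerebellum, with limma adjusted p = 0.0509, 0.0542 and 0.0568, and Il27 was higher, at 137.3% (0.0744). Markers of other cells also differed in these samples, with 0 past the threshold in any list. The 4 choroid plexus markers were lower in 4 of 4 in dp/+ cerebellum (median -0.53), with list means of 9.73 to 11.07 against 10.99 to 11.24 in +/+ mice, and in df/+ cerebellum (-1.22). In dp/+ cerebellum T cell markers were higher in 4 of 4, at 6.07 to 6.2 against 5.89 to 6.02, and skeletal muscle markers in 6 of 6, at 6.88 to 6.92 against 6.67 to 6.82. Their medians were 0.194 and 0.129. The dimmer part of all genes, where these list means lie, had a median of 0.113 there. The part of these markers in the cerebellar values was not tested. Without dp/+ mouse 2, Il27 was the 1 member past the threshold there. In dp/+ cerebellum 10 members had an unadjusted p under 0.05, or 27.0%, against 28.5% of all genes.

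**Figure D3:**
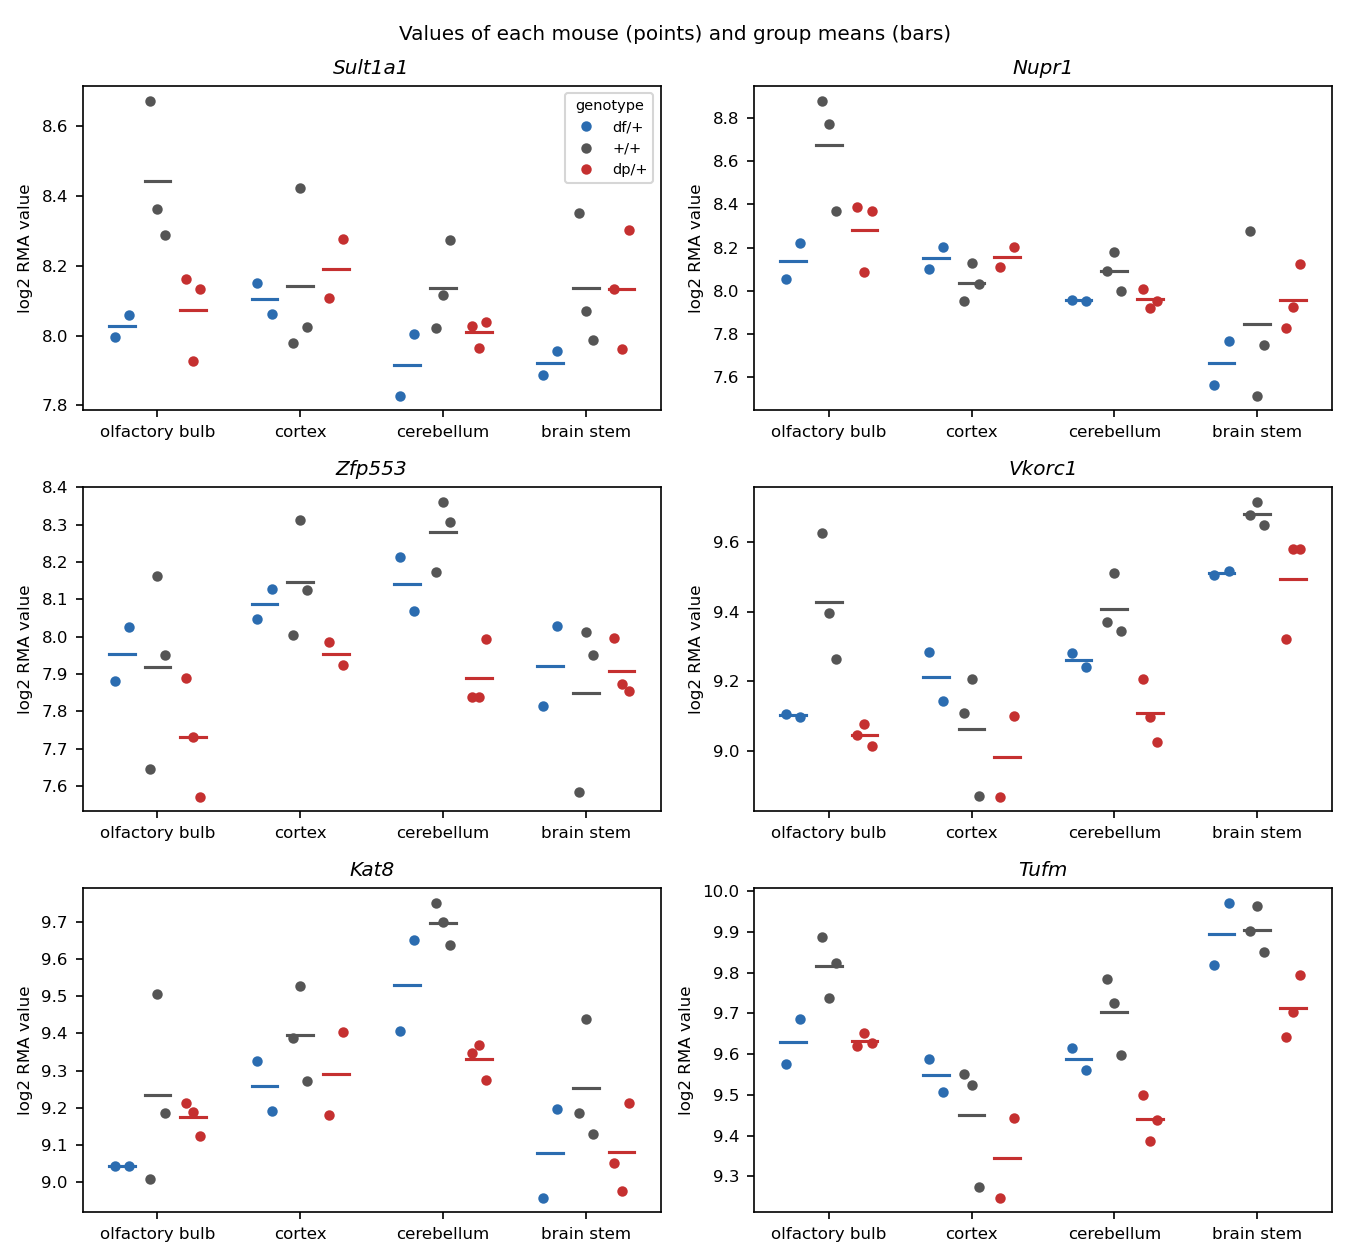
Log2 RMA value (vertical axes, of different range) of each mouse (points) and the group mean (bars) in the 4 regions (horizontal axis), for Sult1a1, Nupr1, Zfp553, Vkorc1, Kat8 and Tufm. The +/+ points of Vkorc1 in the bulb lie from 9.26 to 9.63 above both rearranged groups, and the dp/+ points of Zfp553 in the cerebellum lie from 7.84 to 7.99 below the others.

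In df/+ cerebellum the member with the smallest p was Nfatc2ip, a partner of the T cell factor NFAT. It was 7.01 and 6.96 in df/+ mice, 7.44, 7.43 and 7.27 in +/+ mice and 7.05, 7.26 and 7.18 in dp/+ mice. Both df/+ mice were below every +/+ mouse, at 76.0%, a difference of -0.40 ± 0.10 (SE) that did not pass over all genes (limma adjusted p = 0.224). Zfp764 was 8.69 and 8.88 in df/+ against 8.52, 8.51 and 8.57 in +/+ mice (119.2%; limma adjusted p = 0.542). Sephs2, a selenophosphate synthetase, followed at 86.2% (0.592). In this contrast 2 members had an unadjusted p under 0.05, or 5.41% against 8.78% of all genes.

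In the cortex no member passed in either genotype. In dp/+ mice, of which 2 had a cortex sample, the smallest p values belonged to Atp2a1, Trim72 and Prss8. Atp2a1 was 7.17 and 7.34 in dp/+ mice, 6.92, 6.77 and 7.0 in +/+ mice and 6.99 and 6.84 in df/+ mice, so both dp/+ mice were highest, at 127.8% (limma adjusted p = 0.175). Trim72 stood at 125.6% (0.198) and Prss8 at 125.0% (0.209). All 3 are dim on these arrays. Skeletal muscle markers, none of which passed, were higher in 6 of 6 in dp/+ cortex. Their list means were 6.98 to 7.11 against 6.73 to 6.87 in +/+ mice. T cell markers were higher in 4 of 4, at 6.02 to 6.08 against 5.68 to 5.90. The medians of the 2 lists were 0.248 and 0.246, against 0.122 for the dimmer part of all genes in dp/+ cortex. The part of these markers was not tested. In df/+ cortex Zfp764 (117.2%; limma adjusted p = 0.829), Bckdk, the kinase that restrains branched-chain amino acid breakdown (120.4%; 0.861), and Sephs2 (113.4%; 0.881) came first. At an unadjusted p under 0.05 there were 6 members in dp/+ cortex, or 16.2% against 15.8% of all genes, and 0 in df/+ cortex against 6.01%.

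The brain stem gave the fewest low p values. Prss8 was 6.33 and 6.50 in df/+ mice and 6.16, 6.00 and 6.17 in +/+ mice, higher in both df/+ mice at 123.2% (limma adjusted p = 0.984). In dp/+ mice Tufm was 9.64, 9.70 and 9.79 against 9.90, 9.96 and 9.85, below every +/+ mouse at 87.5% (limma adjusted p = 1). Next were Vkorc1 at 87.9% and Kat8 at 88.8% in dp/+, and Zfp764 at 114.0% and Vkorc1 at 88.9% in df/+ mice, with limma adjusted p = 1 for all 4. The choroid plexus markers were lower in 4 of 4 here too, with list means of 8.01 to 8.39 in df/+, 8.26 to 10.17 in +/+ and 8.18 to 8.74 in dp/+ mice, and their part was not tested. Each genotype had 1 member with an unadjusted p under 0.05, or 2.70%, against 4.17% of all genes in df/+ and 3.56% in dp/+ mice.

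Counts of members that separated the groups mouse by mouse differed by region. In dp/+ cerebellum 8 members were lower in every dp/+ mouse than in any +/+ mouse (20.3% of all genes), among them Bcl7c, Kat8, Rnf40, Tufm and Zfp553, and 8 were higher (16.1%), among them Atp2a1, Il21r, Il27 and Trim72. In dp/+ cortex 11 were higher (25.9% of all genes) and 2, Sbk1 and Zfp553, were lower (13.9%). In dp/+ bulb 5 were lower (8.82% of all genes) and 1, Il4ra, was higher (8.87%), and in dp/+ brain stem Tufm and Vkorc1 were the 2 lower (3.34%) with 0 higher (2.83%).

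With the deletion the bulb had the most separated members, 9 lower (14.6% of all genes) and 1 higher, Il21r (10.5%). The 9 included Nupr1, Sult1a1, Tufm and Vkorc1. In df/+ cortex 3 were lower (14.3% of all genes) and 4 higher (8.76%), in df/+ cerebellum 6 lower (19.2%) and 1 higher (8.18%), and in df/+ brain stem 4 lower (9.32%) and 1 higher (5.87%). Sult1a1 was among the lower ones of bulb, cerebellum and brain stem, and Zfp764 was among the higher ones of cortex and cerebellum.

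A region effect was not shown for any member. An F test of whether the 4 regional differences were equal passed for 0 of 37 members in df/+ mice (0.0602% of all genes) and 0 in dp/+ mice (0.211%), after limma fits and adjustment over all genes. Unadjusted, 4 members in df/+ mice, or 10.8% against 8.62% of all genes, and 6 in dp/+ mice, or 16.2% against 14.9%, had p under 0.05. Prss8 led in df/+ mice (limma adjusted p = 0.383) with a difference of -0.28 in the bulb and 0.30 in the brain stem. Zfp764 led in dp/+ mice (0.238), with differences of 0.23 (cortex) and -0.15 (brain stem). The calls in the bulb for Vkorc1 and in the cerebellum for Zfp553 and Kat8 are therefore not shown to be particular to those regions (adjusted p of the dp/+ F test 0.467, 0.317 and 0.503, limma).

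Without regard to copy number, many flanking genes differed between regions of +/+ mice, as did most genes on the array. Of the 37, 19 passed a limma F test over regions with the mouse as a block, where 58.0% of all genes did (21 members, or 56.8%, against 62.3% at an unadjusted p under 0.05), and 11 of those 19 peaked in cerebellum, 4 in bulb, 2 in cortex and 2 in brain stem. Of all genes that passed, 32.3% peaked in cerebellum, against 57.9% of these 19, and 22.3% in bulb, 22.8% in cortex and 22.5% in brain stem; the difference was not tested. The widest range was that of Sbk1, a protein kinase of the brain, with means of 10.98 (cerebellum) and 8.76 (brain stem), a 4.63-fold difference (limma adjusted p = 2.98e-09). Its +/+ cerebella were 10.91, 10.96 and 11.05, all above every other +/+ sample. Il4ra was 2.02-fold higher in the cerebellum (8.53) than in the bulb (7.51; limma adjusted p = 2.84e-07). Without +/+ mouse 2 the count was 12, and without +/+ mouse 3 it was 15.

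Itgam ran the other way. The gene encodes the integrin CD11b of microglia and other myeloid cells, and it was 7.79, 7.98 and 7.58 in +/+ cortex and 6.65, 6.87 and 6.79 in +/+ cerebellum, a 2.02-fold difference (limma adjusted p = 3.87e-06). The 7 measured microglial markers had list means of 8.69 to 8.94 in +/+ cortex and 7.90 to 8.0 in +/+ cerebellum. Nupr1 was highest in the bulb, 1.78-fold above the brain stem (limma adjusted p = 0.000652). Vkorc1 and Tufm were highest in the brain stem and lowest in the cortex, by 1.54-fold and 1.37-fold. All 6 chromatin genes passed, among them Bcl7c (1.54-fold), Kat8 (1.38-fold) and Setd1a (1.31-fold), each highest in the cerebellum, and so did 3 of the 4 zinc finger genes. None of the 3 genes of muscle and proteases passed.

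**Figure D4:**
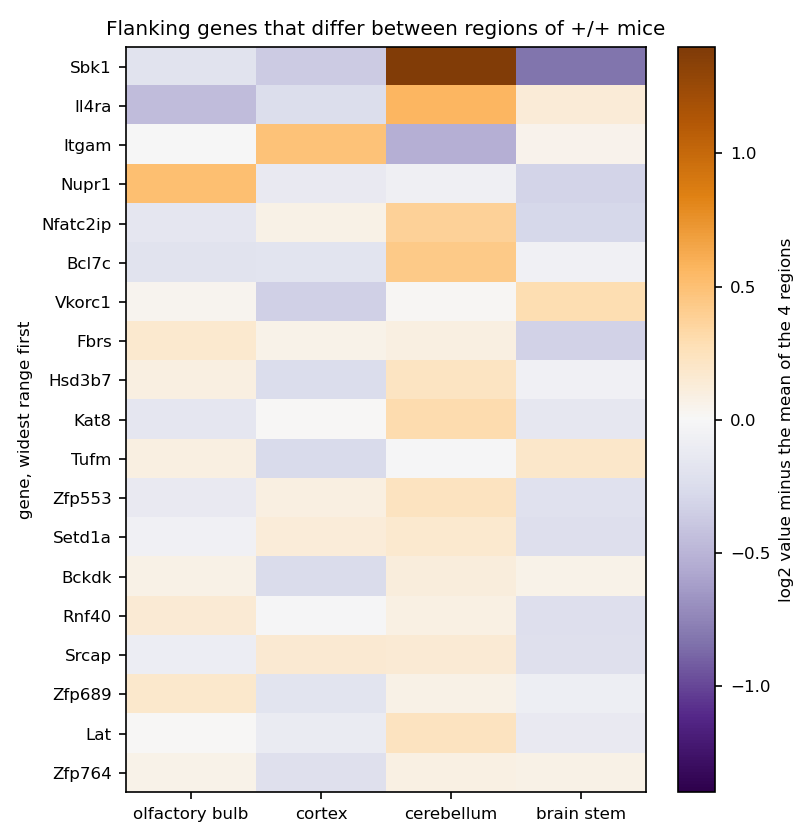
Log2 value minus the mean of the 4 regions (colour scale) in +/+ mice, for the 19 flanking genes whose limma F test over regions passed (rows, widest range first) in each region (columns). The cerebellum column is highest for 11 of the 19 rows, with Sbk1 as the most uneven row.

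Direct neighbours among the members varied together in some cases. After group means were taken out, the correlation over 31 samples was 0.76 for Fbrs and Srcap, 0.66 for Il27 and Apobr and 0.64 for Sbk1 and Xpo6. For other direct neighbours it was negative, at -0.57 for Lat and Sbk1 and -0.49 for Setd1a and Hsd3b7, a bile acid synthesis enzyme. Bckdk lies between Vkorc1 and Kat8, and its correlations with them were 0.34 and 0.27. The points share arrays, mice and signal range, so these values are descriptions. Relative to the +/+ mean of each region, +/+ mouse 1 averaged -0.206 for Fbrs and -0.199 for Srcap. For Sbk1 and Xpo6 it averaged -0.220 and -0.063. Members outside these pairs also stood apart in +/+ mouse 1. It averaged -0.210 for Setd1a, -0.200 for Atxn2l and -0.198 for Zfp553. Others were higher in it, such as Nupr1 at 0.138 and Prss8 at 0.132. Correlations were computed for direct neighbours alone, so whether other pairs of members varied together was not examined. In dp/+ mice, Bckdk stood between its lower neighbours with a difference of -0.031 across the brain against -0.26 and -0.18.

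The promoters of 33 of the 37 members, with 38 starts, were found in the RefSeq table. Il27, Prss8, Sbk1 and Zfp646 were not in it. Over 250 bases before the start they had a median GC content of 56.2% and 9.5 CpG, against 52.4% and 6 for all 32851 starts. Matches on either strand were found for CCAAT in 52.6% of member starts (33.8% of all), for GGGCGG in 50% (32.7%), for TATAAA in 5.3% (12.4%) and for CACGTG in 13.2% (6.0%). CCGGAAGT was found in 2.6% (2.9%). These are matches of letters.

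Other measured genes lie between the members. There were 4 such genes on the Slx1b side and 24 on the Septin1 side, and 0 of them passed in any of the 4 tests across the brain. In df/+ mice the smallest p was that of Snora30, at 83.2% of +/+ (limma adjusted p = 0.552), and it stood at 88.9% in dp/+ mice. In dp/+ mice the smallest p was that of D430042O09Rik, at 87.9% (limma adjusted p = 0.0893). The smallest slope p values on the Slx1b side were those of D430042O09Rik (-0.067), Gsg1l (0.055), Sgf29 (-0.056) and Eif3c (-0.020), and on the Septin1 side those of Zfp688 (0.082), Prr14 (-0.054), 1700120K04Rik (0.072) and Prss53 (0.054). Sgf29, a chromatin reader that sits between Sult1a1 and Nupr1, was among them with a slope p of 0.815 after limma and adjustment.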

How the data were processed

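The deposited values were log2 expression from RMA (background correction, quantile normalization and median polish), made by the authors with Affymetrix Expression Console per the submitters' processing notes; the base of 2 was read from the range of the values, 3.289 to 14.54, and versions and genome build are not given in the sources used here. The material on the arrays was labelled with biotin and came from total RNA. Of 35556 probe sets, 21789 had 1 gene symbol, 1621 several and 12146 none, and the probe set with the highest mean stood for each of 19938 genes.

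By the labels 6 samples were hybridised 2 times, and their arrays were averaged. Fits used limma 3.58.1 in R 4.3.3. Across the brain each mouse had 1 value, its mean over regions after the +/+ mean of each region was taken off. Regions were fitted as 12 group means over 31 samples, the mouse being a random block (consensus correlation 0.12), and regions of +/+ mice with a fixed term for the mouse. Benjamini-Hochberg adjustment ran over all genes, with 0.05 as the threshold. The number of arrays limits the precision. The fits were tested on simulated data.

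Named genes were all members, the 4 other neighbours with the smallest slope p on each side and the 2 measured interval genes nearest each end. The other neighbours with the smallest p in df/+ and in dp/+ mice were named as well. The members and lists were chosen with earlier results of these data known. Gene order came from RefSeq on GRCm38.p6. Alternatives were other normalizations, probe sets, filters, priors, weights, blocks and each mouse left out.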

Additional observations from a re-analysis of the deposited data

How the results depend on the processing

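Of the values followed singly under the alternatives, those of the members with the smallest p, 554 kept direction and side of the threshold, 28 lost the call, 9 gained it and 0 reversed. Members near 0 were not followed singly, and the median over the 37 members changed sign, from -0.031 to 0.012 in df/+ and from -0.021 to 0.029 in dp/+ mice across the brain. Of the counts of members past the threshold, 251 values under alternatives stayed within 1.5 times the main count and 30 moved; the cause was not tested. Array weights gave 1 member for the slope (Zfp764), 1 in dp/+ mice across the brain (Zfp553), 1 in df/+ bulb (Nupr1), 0 in dp/+ bulb, 4 in dp/+ cortex (Apobr, Atp2a1, Lat and Trim72) and 7 in dp/+ cerebellum. In dp/+ mice across the brain the count was 1 with the first array of each sample, 1 without the cortex and 2 (Tufm and Vkorc1) with all region samples and the mouse as a random block. In dp/+ bulb it was 2 with arrays centred on their medians and 0 with each region fitted alone. In dp/+ cerebellum it was 0 with the first arrays, 0 with quantile normalization within regions and 0 with cyclic loess. Leaving out 1 mouse in turn gave 0 to 1 members in dp/+ mice across the brain, 0 to 1 in df/+ bulb, 0 to 1 in dp/+ bulb, 0 to 2 in dp/+ cerebellum and 12 to 19 between regions of +/+ mice.

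Replicate numbers did not pair the mice: the correlations of same-numbered mice of different genotypes ran from -0.38 to 0.17. With the number as a replicate block no count moved, and limma adjusted p was 0.0351 for Vkorc1 in dp/+ bulb, 0.0395 for Zfp553 and 0.0411 for Kat8 in dp/+ cerebellum. With 2 df/+ mice, and 2 dp/+ cortex samples, small changes of single members were not resolved. A filter on dim genes kept 24 of the 37 members.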
